A study of Mus musculus with 15 samples.

Results

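The Trbj2 genes are the J segments of the downstream cluster of the mouse T-cell receptor (TCR) β locus, TCRBJ02-01 to TCRBJ02-07 in the names the sequencing assay uses. They were taken here as every rearrangement whose assigned J gene name starts with TCRBJ02, and values are for productive rearrangements (in frame, no stop codon) unless stated. In any reading frame, the 7 genes held 20418 of 29992 rearrangements (68.1%), against 9537 (31.8%) for the 7 Trbj1 genes, and 37 had no single J gene. A sequence found in several samples was counted once in each. The rearrangements came from 15 samples: the tumor-draining lymph node (TdLN), tumor 1 and tumor 2 of 5 untreated female C57BL/6 mice. The mice were 6 weeks old at purchase and carried B16F10GP, a melanoma line made to express the LCMV glycoprotein by lentivirus and sorted for ZsGreen1. Tumor 1 was implanted on the right flank on day 0 and tumor 2 on the left flank on day 3, and tissue was taken on day 19. The TdLN drained tumor 1. CD8+ PD-1+ CD44+ T cells were sorted, and the TCRβ locus of their genomic DNA was sequenced. DNA rearrangements carry no expression, so the sort could not be checked against its markers.

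A TCRβ chain gene is assembled in the thymus by cutting and joining 1 V, 1 D and 1 J segment, at recombination signals that flank each segment. A signal consists of a heptamer and a nonamer around a spacer. Bases are trimmed from the ends, and non-templated (N) bases are added before the ends are sealed, so that many joints lose the reading frame. The third complementarity-determining region (CDR3), which contacts the peptide, spans these joints, and the J gene provides its last residues. Each J cluster lies downstream of its own D gene. Trbd1 can join genes of either cluster, whereas Trbd2 lies downstream of the Trbj1 genes and is normally joined to Trbj2 genes.

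All 7 genes lie on the plus strand of chromosome 6 within 1103 bases (build GRCm38, positions from the GENCODE annotation, sequence from RefSeq). The first starts 577 bases after the end of Trbd2, and the last Trbj1 gene ends 6475 bases before Trbd2. The annotation calls 6 of them J genes and Trbj2-6 a J pseudogene. Their germline sequences are shown because trimming and CDR3 length below are counted on them. Capitals mark the bases that fall inside the 87-base read when nothing is trimmed.
Trbj2-1 (chr6:41542754-41542803): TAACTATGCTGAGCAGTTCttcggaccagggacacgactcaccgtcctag
Trbj2-2 (chr6:41542957-41543007): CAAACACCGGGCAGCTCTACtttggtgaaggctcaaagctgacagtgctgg
Trbj2-3 (chr6:41543223-41543271): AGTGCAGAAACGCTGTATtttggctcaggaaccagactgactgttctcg
Trbj2-4 (chr6:41543362-41543410): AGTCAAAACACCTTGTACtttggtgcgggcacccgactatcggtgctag
Trbj2-5 (chr6:41543453-41543501): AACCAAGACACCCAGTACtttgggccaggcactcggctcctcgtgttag
Trbj2-6 (chr6:41543598-41543645): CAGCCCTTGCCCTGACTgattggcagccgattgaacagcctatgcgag
Trbj2-7 (chr6:41543810-41543856): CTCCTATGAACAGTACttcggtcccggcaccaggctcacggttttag
The covered part is shortest in Trbj2-7, at 16 bases, and longest in Trbj2-2, at 20 bases. Among untrimmed rearrangements the read matched these bases in 467 of 467 with Trbj2-1 and 1307 of 1307 with Trbj2-7, and in every untrimmed rearrangement of the other 5 genes. Both D genes are rich in G. The reference has gggacaGGGGGc for Trbd1 and gggactGGGGGGGc for Trbd2, with the longest G run of each, 5 and 7 bases, in capitals.

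The recombination signals before the J genes are shown since they are where the joint is cut, with nonamer and heptamer in capitals and the spacer in lower case.
Trbj2-1 signal: GAATTCTTGgtagcccttttcTGCTGTG
Trbj2-5 signal: AGTTTTTGTgttgggttctggGGCTGTG
Trbj2-6 signal: GGTTTCTCTtgggagtcacagGGTTGTG
Trbj2-7 signal: GGTTTGTGTgtggggttgagcCTCTGTG
Each was set against the consensus nonamer GGTTTTTGT and heptamer CACTGTG at this fixed place on the plus strand, over 16 positions. Trbj2-7 had 2 mismatches, the fewest of the 14 J genes. Trbj2-2, Trbj2-3, Trbj2-4 and Trbj2-5 had 3 each, Trbj2-6 had 5 and Trbj2-1 had 7. The Trbj1 genes had between 5 and 8. An exact heptamer preceded 1 of the 14 genes, a Trbj1 gene, and an exact nonamer 0 of 14. These counts describe the letters only.

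Depth differed between tissues. The files held 4909 to 13848 templates per TdLN, 5382 to 7946 per tumor 1 and 338 to 5401 per tumor 2, a template being an estimated input DNA molecule. Distinct productive rearrangements numbered 1290 to 5722 per TdLN, 183 to 366 per tumor 1 and 50 to 553 per tumor 2. The lowest was tumor 2 of mouse 4, where the Trbj2 share of 70% had a 95% Wilson interval of 56.2% to 80.9%. Such intervals cover counting error only. Sample names were written in 1 style for mice 1 to 3 and in another for mice 4 and 5, and what differed between these sets was not given.

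In the TdLN, a Trbj2 gene was used by 68.2%, 68.4%, 68.4%, 66.1% and 65.2% of unique productive rearrangements in mice 1 to 5. The spread between mice was small, at 67.3% ± 1.52 (SD, n = 5). Tumor 1 held 66.9%, 67.5%, 63.9%, 71.3% and 65.3%, and tumor 2 held 69.8%, 72.1%, 60.8%, 70% and 66.5%. The tumors varied more from mouse to mouse, and the TdLN mean lay within the range of both. The mean within-mouse difference from the TdLN was −0.300 percentage points (SD 3.51) for tumor 1 and 0.565 (SD 4.72) for tumor 2. In mice 1 to 3 these differences were −2.25 and −0.796, and in mice 4 and 5 they were 2.63 and 2.61.

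Within the cluster 1 gene stood above the rest. Trbj2-7 (TCRBJ02-07), the J gene farthest from the D genes, held 22.3%, 21.6%, 20.8%, 22.4% and 22.1% of unique productive TdLN rearrangements (21.8% ± 0.67, SD, n = 5). Trbj2-1 (TCRBJ02-01), the J gene next after Trbd2, followed with 11.7%, 13.6%, 13.95%, 12.7% and 12.4% (12.9% ± 0.92). Trbj2-5 (TCRBJ02-05) held 11.6%, 11.2%, 11.9%, 11.0% and 10.1% (11.2% ± 0.71). Trbj2-7 was thus above both in every mouse, with no overlap, whereas the ranges of Trbj2-1 and Trbj2-5 overlapped although the former was higher in 5 of 5 mice. Trbj2-4 (TCRBJ02-04) had 8.06% ± 0.69 (7.36% to 8.83%) and Trbj2-3 (TCRBJ02-03) had 8.003% ± 0.73 (7.31% to 9.20%). These neighbours in the order were not separated, Trbj2-4 being higher in 3 of 5 mice. Trbj2-2 (TCRBJ02-02) was the least used of the 6 functional genes, with 5.72%, 4.11%, 6.51%, 5.30% and 5.17% (5.36% ± 0.87), and overlapped none of the others.

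Trbj2-6 (TCRBJ02-06), the pseudogene, was nearly absent. It had 14 rearrangements and 21 templates in all 15 samples together, of which 3 rearrangements were called productive, 10 were out of frame and 1 had a stop codon. The productive ones were 1 each in the TdLN of mouse 5, tumor 1 of mouse 2 and tumor 2 of mouse 4. In the last, with its 50 productive rearrangements, a single one made a share of 2%. Trbj2-6 fell below the mean share of 1% needed for testing, as did 1 Trbj1 gene, which left 12 J genes in each test, 6 of them Trbj2.

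**Figure D1:**
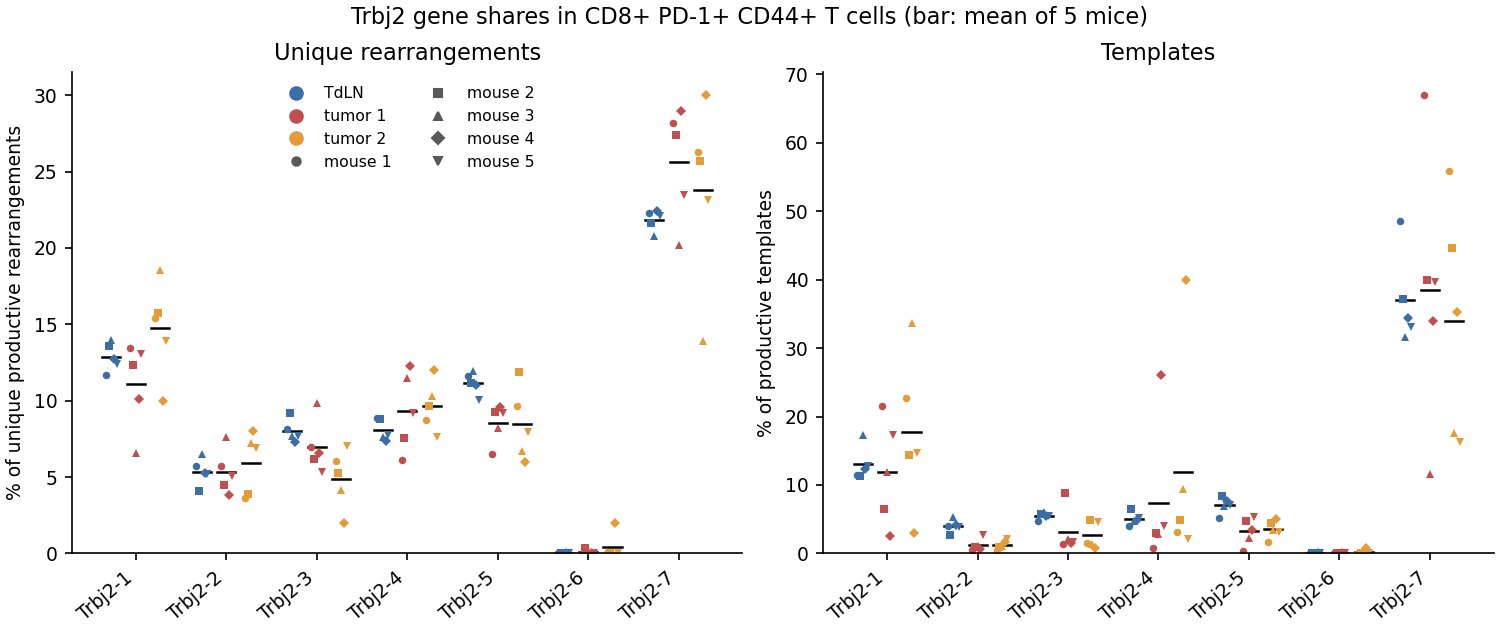
Share of each Trbj2 gene (y axis, %) among unique productive rearrangements (left) and among productive templates (right) in the TdLN, tumor 1 and tumor 2, with 1 point per mouse and a bar at the mean of 5 mice. By unique rearrangements Trbj2-7 is highest in every TdLN (20.8% to 22.4%), and by templates it ranges from 11.6% to 67.0% across the tumor 1 samples.

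Comparing each tumor with the TdLN addresses whether cells that entered the tumor used the J genes differently. Counted as unique rearrangements, 0 of 12 J genes (0%) differed between tumor 1 and the TdLN at an adjusted p under 0.05 (two-sided exact permutation test over mice, Benjamini-Hochberg over the 12 genes), with 1 gene at an unadjusted p under 0.05 and 0 calls by limma and by edgeR. The smallest p that 5 against 5 mice can give is 0.00794. Trbj2-7 held 28.2%, 27.4%, 20.2%, 29.0% and 23.4% in tumor 1. It was above every TdLN in 4 mice and below its own TdLN in mouse 3, and the mean of 25.6% ± 3.70 was 3.79 points higher (exact permutation p = 0.0952, adjusted p = 0.381). Trbj2-5 held 6.53%, 9.25%, 8.20%, 9.56% and 9.20% in tumor 1. All 5 values lay under the lowest TdLN, 2.60 points lower on average (exact permutation p = 0.00794, adjusted p = 0.0952). Productive rearrangements with 1 template were 10062 of 15712 in the TdLN, 695 of 1423 in tumor 1 and 821 of 1490 in tumor 2. The share with 1 template differed between J genes (below), and the tissues were not matched for it. Shares of unique rearrangements can therefore differ between tissues through this mix.

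In tumor 2, 0 of 12 genes (0%) passed, again with 1 at an unadjusted p under 0.05 and 0 by limma and by edgeR. Trbj2-3 held 6.04%, 5.25%, 4.12%, 2% and 7.05% there, against 8.17%, 9.20%, 7.67%, 7.31% and 7.67% in the TdLN. The groups did not overlap, and the mean of 4.89% was 3.11 points lower (exact permutation p = 0.00794, adjusted p = 0.0952). Between tumor 1 and tumor 2, 0 of 12 genes (0%) passed, with 0 at an unadjusted p under 0.05 and 0 by limma and by edgeR. Both tumors were compared with the same TdLN samples, so their differences are not independent of each other.

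Counted by templates, where large clones weigh more, both Trbj2-2 and Trbj2-5 were lower in tumor 2. Of the 12 J genes 2 passed (16.7%), and both were these Trbj2 genes. At an unadjusted p under 0.05 by the exact permutation test there were 5 genes (41.7%), 3 of them Trbj2 genes, all 3 lower. The rest were Trbj1 genes and were lower too, for instance Trbj1-1 with 3.23% against 5.78%. A lower template share in tumor 2 was thus not particular to the Trbj2 cluster. Trbj2-2 held 0.453%, 0.922%, 1.14%, 1.68% and 2.18% of productive templates in tumor 2, against 3.97%, 2.64%, 5.33%, 4.10% and 3.88% in the TdLN. Trbj2-5 held 1.64%, 4.49%, 3.42%, 5.04% and 3.14%, against 5.19%, 8.42%, 6.88%, 7.63% and 7.12%. Every tumor 2 value of both genes lay under the lowest TdLN value. Means were 1.27% ± 0.67 against 3.98% ± 0.95 for Trbj2-2 and 3.55% ± 1.32 against 7.05% ± 1.196 for Trbj2-5, differences of −2.71 and −3.50 points (n = 5 mice, exact permutation p = 0.00794, adjusted p = 0.0476 each). In mice 1 to 3 the differences were −3.14 and −3.65, and in mice 4 and 5 they were −2.06 and −3.28. With the mouse as a block limma called 1 gene, Trbj2-2 (adjusted p = 0.0399). Among rearrangements with at least 2 templates the difference of Trbj2-5 shrank to −0.274 (adjusted p = 0.802). Without rearrangements also found in another mouse, Trbj2-2 was 1.17 points higher in tumor 2 (adjusted p = 0.929).

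In tumor 1 by templates 0 of 12 genes (0%) passed, with 3 at an unadjusted p under 0.05 by the exact permutation test and 2 calls by limma. Of the 3, 2 were Trbj2 genes and the other was Trbj1-1. Trbj1-1 had 2.12% against 5.78% in the TdLN, with no overlap (exact permutation adjusted p = 0.0635). Trbj2-2 had 1.195% against 3.98% in the TdLN and Trbj2-5 had 3.24% against 7.05% (exact permutation adjusted p = 0.0635 each), and limma called Trbj2-2 (adjusted p = 0.0169). With the mouse as a block limma called 0 genes there (Trbj2-2 adjusted p = 0.113). The cluster as a whole ranged widely by templates, with 91.6%, 64.1%, 31.98%, 68.2% and 70.6% in tumor 1 and 85.5%, 74.2%, 66.7%, 86.6% and 43.0% in tumor 2, against 67.4% to 78.0% in the TdLN. Its mean difference from the TdLN was −6.21 points (SD 20.3) in tumor 1, or 2.18 without mouse 3, and −0.333 (SD 15.8) in tumor 2. Trbj2-7 alone held 67.0%, 40.01%, 11.6%, 33.9% and 39.6% of tumor 1 templates and 48.6%, 37.2%, 31.6%, 34.4% and 33.1% of TdLN templates. Its tumor values thus lay on both sides of the node.

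Single clones weighed on these template shares. The largest Trbj2 rearrangement of tumor 1 in each mouse is printed to show how large a single clone was. Capitals mark the J part of the 87-base read.
Mouse 1, Trbv16 and Trbj2-7: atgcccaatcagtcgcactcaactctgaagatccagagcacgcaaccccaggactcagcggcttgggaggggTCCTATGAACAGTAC
Mouse 2, Trbv17 and Trbj2-7: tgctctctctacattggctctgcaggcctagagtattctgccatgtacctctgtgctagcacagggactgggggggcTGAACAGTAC
Mouse 3, Trbv2 and Trbj2-1: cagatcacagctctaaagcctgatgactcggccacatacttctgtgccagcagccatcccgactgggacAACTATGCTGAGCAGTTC
Mouse 4, Trbv13-1 and Trbj2-4: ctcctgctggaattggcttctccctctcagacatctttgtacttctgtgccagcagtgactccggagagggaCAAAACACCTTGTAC
Mouse 5, Trbv14 and Trbj2-7: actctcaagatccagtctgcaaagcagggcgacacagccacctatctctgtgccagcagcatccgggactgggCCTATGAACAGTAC
In mouse 1 the rearrangement had 2948 templates, 48.0% of productive tumor 1 templates. It also made up 10.8% of the TdLN and 33.6% of tumor 2. Its listed CDR3 was 21 bases long, against 39 to 48 bases in the other printed rearrangements. Its read also lacks the tgtgcc or tgtgct that each of the others holds. Whether it encodes a complete receptor chain was not tested. In mouse 2 the largest Trbj2 rearrangement had 1032 templates, 24.6% of tumor 1, with 1.66% of the TdLN and 21.02% of tumor 2. Its read holds the whole germline Trbd2 sequence. Both were thus large in the paired tumors and present in the node. They were also listed in other mice, with 306 and 85 templates, and a carry-over between samples was not tested.

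In mouse 3 the largest Trbj2 rearrangement had 247 templates, 6.22% of tumor 1 and 5.13% of the TdLN, and 0 templates in tumor 2. In mouse 4 it made up 9.71% of tumor 1 and 20.2% of tumor 2, and another mouse listed 24 templates of it. Trbj2-4 as a gene held 26.1% and 39.9% of templates in these samples, above every other mouse (0.815% to 4.05% in tumor 1 and 2.18% to 9.44% in tumor 2). The printed rearrangement was not found in the TdLN of mouse 4, where 0 templates allow a share of up to 0.0344%. In mouse 5 it made up 18.9% of tumor 1, with 1 template in tumor 2 (0.0484%) and 0 in the TdLN, which allows up to 0.0329%.

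Rearrangements with a Trbj2 gene were found again in other samples at mean shares within a few points of those of Trbj1 rearrangements. The differences were not tested. Of unique Trbj2 rearrangements in tumor 1, 33.4% were also in the TdLN of the same mouse (11.5% to 47.9%), against 32.5% of Trbj1 rearrangements. For tumor 2 the shares were 13.8% and 17.9%, and the Trbj2 share was the lower one in every mouse. In mice 3 and 5, 0% and 4.62% of the Trbj2 rearrangements of tumor 2 were in the TdLN of the same number. Sharing of TdLN rearrangements with the TdLN of another mouse was low, at 1.08% for Trbj2 and 1.41% for Trbj1. The Trbj2 share was again the lower one in every mouse. The Trbj2 rearrangement found in most mice used Trbv3 and Trbj2-1 and is printed as the case of a sequence listed for several mice.
Trbv3 and Trbj2-1: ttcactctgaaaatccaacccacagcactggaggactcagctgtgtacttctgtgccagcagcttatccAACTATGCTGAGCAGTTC
It had 1664 templates in 8 samples of 4 mice. For mouse 1 the TdLN listed 106 templates, tumor 1 listed 1035 and tumor 2 listed 422, and for mouse 2 the same tissues listed 3, 4 and 88. The TdLN of mouse 4 listed 5 and tumor 1 of mouse 5 listed 1. A carry-over between samples was not tested for it.

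Out-of-frame rearrangements make no receptor, so setting them beside productive ones addresses how J gene use differs between chains that can be selected and chains that cannot. In the TdLN, 2 of 12 J genes (16.7%) differed between the reading frames, Trbj2-7 and Trbj1-1. Trbj2-7 held 29.2%, 28.1%, 25.7%, 28.1% and 30.2% of unique out-of-frame rearrangements. Each of these was above the productive share of its mouse, and the productive minus out-of-frame mean was −6.38 points (21.8% against 28.2% ± 1.68, n = 5 mice, exact permutation p = 0.00794, adjusted p = 0.0476). Trbj1-1 went the other way, with 9.97% of productive and 7.05% of out-of-frame rearrangements (adjusted p = 0.0476). Trbj2-4 and Trbj2-5 were 1.15 and 1.12 points higher among productive rearrangements (exact permutation adjusted p = 0.119 and 0.0952). With the mouse as a block limma called 4 genes, Trbj2-7 (adjusted p = 0.00267) and Trbj2-4 (adjusted p = 0.0385) among them. The whole cluster was 2.81 points lower among productive ones (SD 2.77, 67.3% against 70.1%).

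The direction of Trbj2-7 and of 3 other Trbj2 genes turned when near-copies were left out. A near-copy was a rearrangement that differed by 1 inserted or deleted base from another with more templates in the same sample, a definition made after the data were seen. Without them Trbj2-7 held 21.7%, 21.1%, 20%, 22.0% and 21.1% of productive rearrangements against 15.5%, 15.5%, 15.1%, 15.9% and 16.9% of out-of-frame ones. The productive share was then higher in every mouse, by 5.38 points (exact permutation adjusted p = 0.0476), and the cluster was 3.45 points higher. A base inserted into or deleted from a productive rearrangement shifts its frame, so the removal fell mostly on out-of-frame ones. Near-copies were 24.5% of out-of-frame and 1.71% of productive TdLN rearrangements. The direction and the p after removal are thus partly set by this filter and do not test selection. The differences of Trbj2-3, Trbj2-4 and Trbj2-5, productive minus out of frame, turned too, from 0.564, 1.15 and 1.12 points to −0.751, −0.504 and −0.889 (exact permutation adjusted p = 0.333, 0.333 and 0.0762 without near-copies). That of Trbj1-1 shrank from 2.92 to 0.797 points (SD 2.67). Among rearrangements with at least 2 templates the productive share of Trbj2-7 was 7.37 points higher than its out-of-frame share (exact permutation adjusted p = 0.381). In the tumors the productive share of Trbj2-7 minus the out-of-frame share was −8.85 points (SD 2.64) in tumor 1 and −8.22 (SD 1.39) in tumor 2 with all rearrangements. Without near-copies it was 2.99 (SD 6.10) and 3.38 (SD 5.92), less than the spread between mice. By V gene, it was lower in 19 of 20 V genes of the TdLN with all rearrangements and higher in 18 of 20 without near-copies. Values for mice 1 to 3 and for mice 4 and 5, with all rearrangements, were −6.06 and −6.87.

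**Figure D2:**
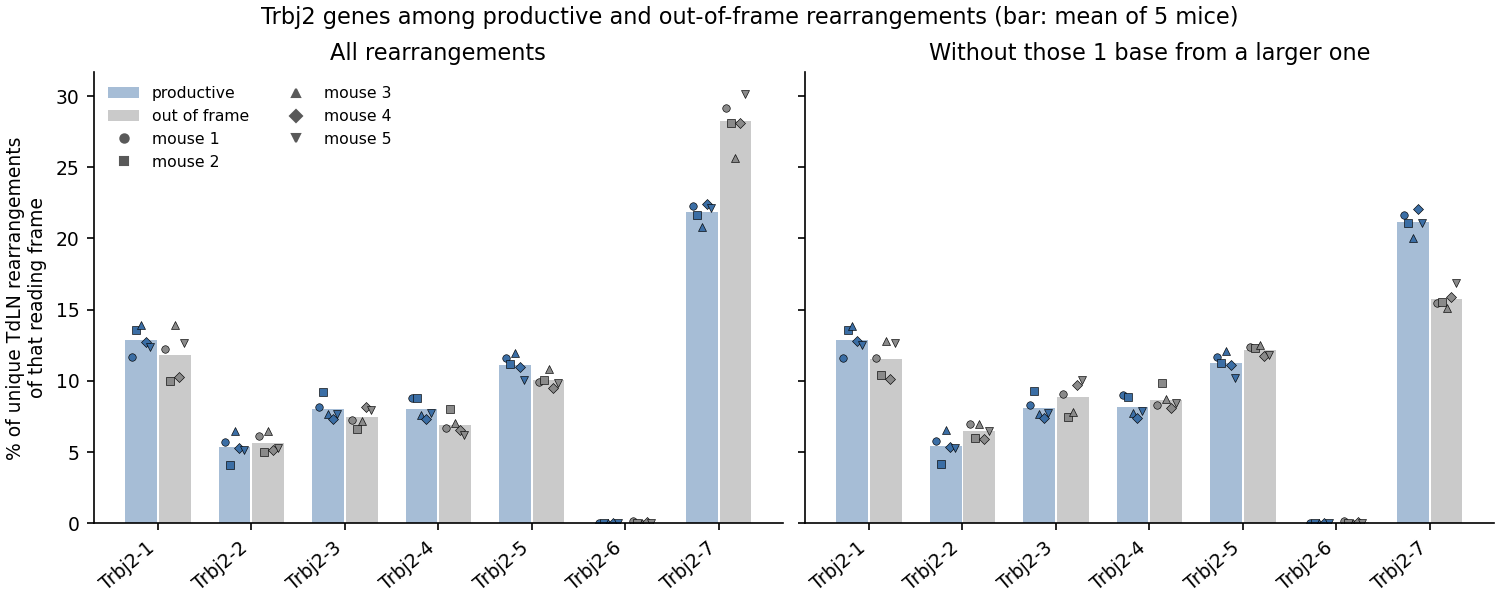
Share of each Trbj2 gene (y axis, %) among productive and out-of-frame unique rearrangements of the TdLN, with all rearrangements (left) and without those 1 inserted or deleted base from a larger one (right). Bars start at 0 and give the mean of 5 mice, points are mice. For Trbj2-7 the out-of-frame bar is the higher one on the left (28.2% against 21.8%) and the lower one on the right, where the points lie between 15.1% and 16.9%.

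Near-copies were mostly Trbj2-7 rearrangements. Of 3632 among all samples, 2197 (60.5%) used Trbj2-7, which held 25.1% of all rearrangements, and 3113 (85.7%) used a Trbj2 gene. They were out of frame in 3197 cases (88.0%), had a single template in 3346 (92.1%), and 2709 (74.6%) differed within a run of at least 5 G. A pair from the TdLN of mouse 2, Trbv1 with Trbj2-7, is printed to show the pattern, with the G run in capitals.
Productive, 39 templates: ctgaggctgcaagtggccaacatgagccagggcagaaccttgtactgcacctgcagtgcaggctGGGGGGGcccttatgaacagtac
Out of frame, 1 template: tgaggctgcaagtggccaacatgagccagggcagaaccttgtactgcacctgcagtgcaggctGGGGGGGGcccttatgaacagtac
The G run is 7 bases in the first and 8 in the other, and the listed CDR3 lengths are 45 and 46 bases. How such pairs arose was not tested.

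In the TdLN, 1419 of 2460 out-of-frame Trbj2-7 rearrangements (57.7%) were near-copies, and among those with 1 template it was 1383 of 1698 (81.4%). For 88.0% of the 1419 the larger partner was productive. Shares were lower for each other Trbj2 gene, at 26.0% for Trbj2-1, 11.4% for Trbj2-2, 8.6% for Trbj2-3, 8.5% for Trbj2-5 and 3.3% for Trbj2-4. The Trbj1 genes together had 8.4%, and the tested ones spanned 0.17% to 16.2%. The highest of these was above every Trbj2 gene but Trbj2-7 and Trbj2-1. Among productive rearrangements near-copies were few, at 4.8% for Trbj2-7. A run of at least 6 G was present in 50.5% of out-of-frame and 32.4% of productive Trbj2-7 rearrangements, and in 30.4% and 31.3% without near-copies.

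Rearrangements with Trbj2-7 were less often seen with a single template than those of each other functional Trbj2 gene, with no overlap between genes. Of its productive TdLN rearrangements 24.2% (19.8% to 30.5% over mice) had a single template, and the mean was 3.78 templates (2.34 to 6.12). The share with a single template was 62.6% for Trbj2-1, 73.9% for Trbj2-2, 81.7% for Trbj2-3, 86.0% for Trbj2-5 and 88.9% for Trbj2-4, with means of 2.26 for Trbj2-1 and 1.34 for both Trbj2-4 and Trbj2-5. The Trbj1 genes spanned 28.7% to 91.0%, so that a low share was not particular to Trbj2-7. The share of Trbj2-7 among rearrangements depended on the template number at which it was read. Among productive rearrangements it held 8.62% of those with 1 template, 34.1% of those with 2 and 62.1% of those with 3 or 4. Among out-of-frame ones it held 25.5%, 27.9% and 56.7%, and 7.02% of those with 1 template once near-copies were left out. With 5 or more templates the shares were 47.1% and 40.7%.

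**Figure D3:**
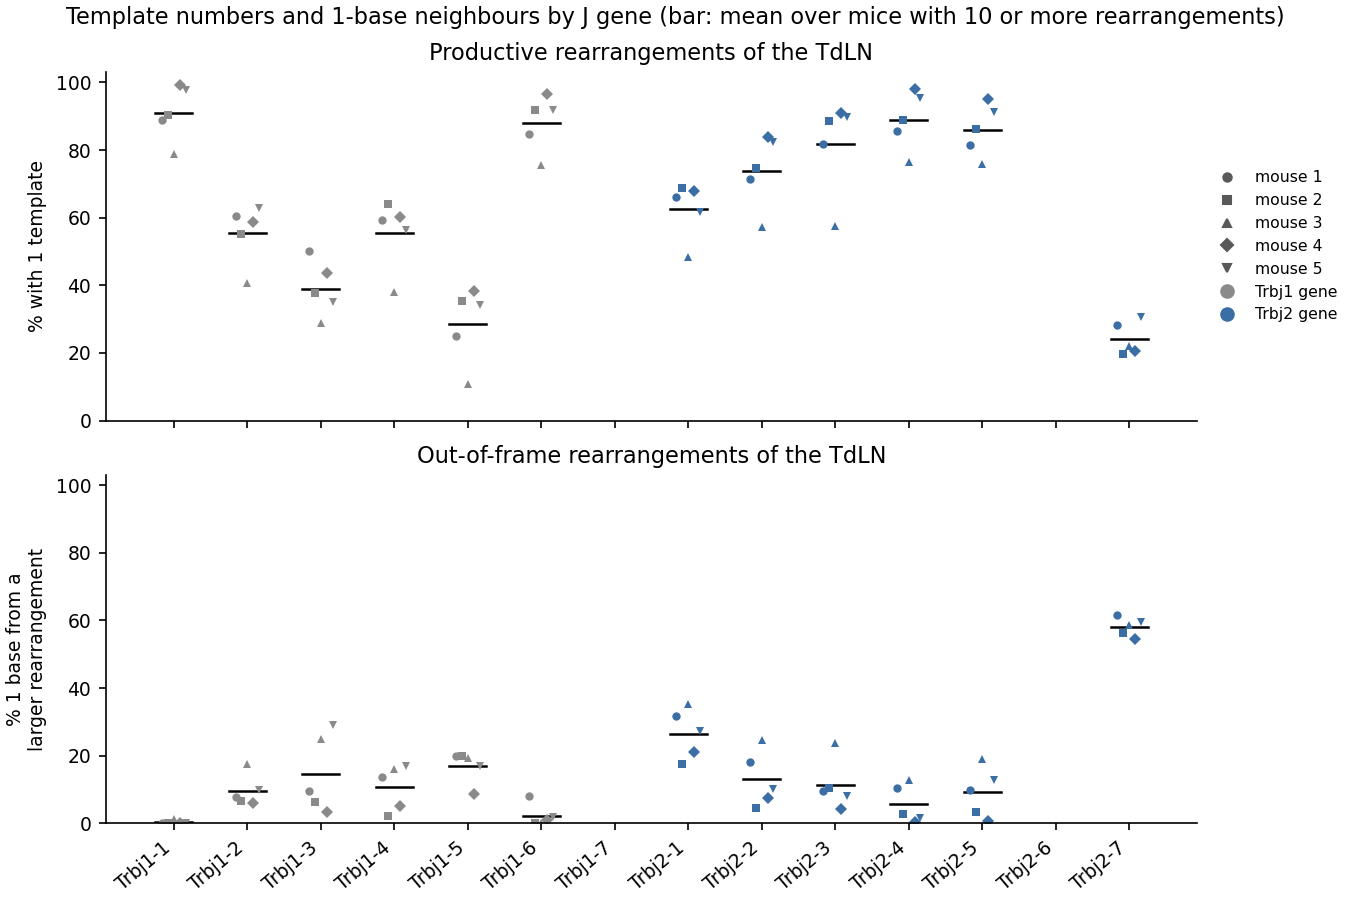
Per J gene in the TdLN, the percentage of productive rearrangements with 1 template (top) and the percentage of out-of-frame rearrangements 1 inserted or deleted base from a larger one (bottom), with 1 point per mouse (mice with at least 10 rearrangements) and a bar at their mean. Trbj2-7 is lowest of the Trbj2 genes in the top panel (19.8% to 30.5%) and highest of all J genes in the bottom one (54.5% to 61.7%).

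Junctions differed between the Trbj2 genes in how far the J end was trimmed. In productive TdLN rearrangements Trbj2-7 lost the most, 3.66 bases ± 0.13 (SD, n = 5 mice), followed by Trbj2-1 with 3.33, Trbj2-5 with 3.12, Trbj2-2 with 2.48 and Trbj2-4 with 2.30. Trbj2-3 lost the fewest, 1.504 bases. The J end was untrimmed in 45.6% of Trbj2-3 and 39.5% of Trbj2-4 rearrangements, which both start with AGT, and in 12.6% for Trbj2-1 and 19% for Trbj2-7. Mean N insertions lay between 3.54 and 3.86 bases. CDR3 length was shortest for Trbj2-7, 40.1 bases ± 0.24, with no overlap with another Trbj2 gene. It was 42.3 bases for Trbj2-5, 43.2 for Trbj2-4 and Trbj2-1, 44.3 for Trbj2-3 and 44.5 for Trbj2-2.

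Between productive and out-of-frame rearrangements of the TdLN, mean J trimming passed in 0 of 12 genes (0%) by the exact permutation test and 0 by limma, with 2 at an unadjusted p under 0.05. Mean N insertions passed in 0 of 12 (0%), with 6 at an unadjusted p under 0.05 and 7 calls by limma, or 10 with the mouse as a block. They were lower in productive rearrangements for all 6 Trbj2 genes tested, for instance 3.70 against 4.29 bases for Trbj2-7, which was lower in 5 of 5 mice (exact permutation adjusted p = 0.0635). Without near-copies these were 3.66 and 4.02 bases (exact permutation adjusted p = 0.180). Between tumor 1 and the TdLN the counts were 0 of 12 (0%) for J trimming, N insertions and CDR3 length alike, each with 1 gene at an unadjusted p under 0.05 and 0 calls by limma. Trbj2-7 had 4.36 N bases in tumor 1 against 3.70, higher in 5 of 5 mice (exact permutation p = 0.00794, adjusted p = 0.0952). The CDR3 of Trbj2-4 was 41.9 bases long against 43.2 (exact permutation p = 0.0317, adjusted p = 0.381).

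**Figure D4:**
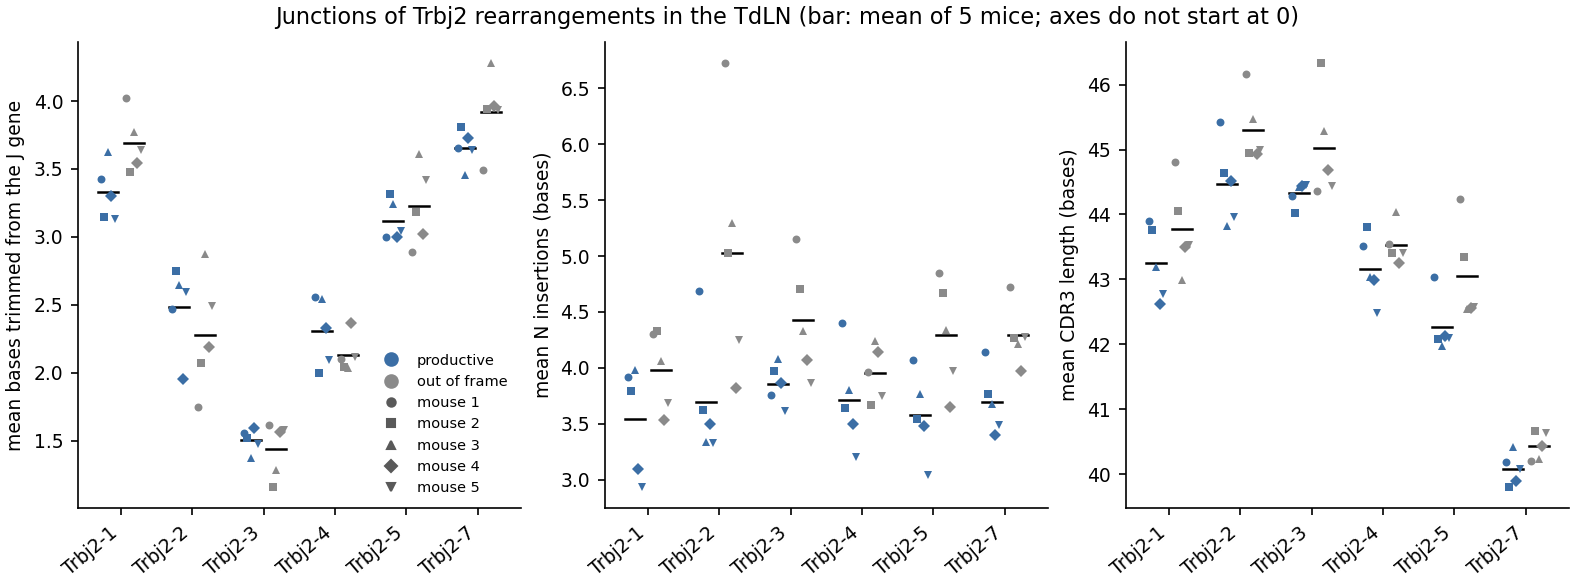
Mean bases trimmed from the J gene (left), mean N insertions (middle) and mean CDR3 length (right), in bases, for productive and out-of-frame TdLN rearrangements of each Trbj2 gene, with 1 point per mouse and a bar at the mean of 5 mice. The axes do not start at 0. Trbj2-7 has the most trimming (productive mean 3.66) and the shortest CDR3 (productive mean 40.1), and Trbj2-3 the least trimming (1.504).

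Trbd2 was named mostly with Trbj2 genes. Among productive TdLN rearrangements with an assigned D gene, Trbd2 was named in 63.5% ± 2.48 (SD, n = 5 mice) of those with a Trbj2 gene and in 9.80% ± 1.29 of those with a Trbj1 gene. The Trbj2 genes were close to each other, at 62.8% for Trbj2-1, 64.2% for Trbj2-3, 66.1% for Trbj2-4, 65.8% for Trbj2-5 and 63.8% for Trbj2-7. Trbj2-2 was lowest, at 54.4% (47.3% to 60.4%), and its range overlapped those of Trbj2-3 (from 57.6%) and Trbj2-7 (from 59.0%). It did not overlap those of Trbj2-1 (60.8% to 64.1%), Trbj2-4 (from 61.3%) or Trbj2-5 (from 60.6%). No D gene was assigned in 15.1% of productive Trbj2 and 23.5% of Trbj1 rearrangements. The D assignment rests on a few bases after trimming, and both D genes share most of their letters. In out-of-frame Trbj2-7 rearrangements Trbd2 was named in 76.9%, and in 57.8% without near-copies.

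**Figure D5:**
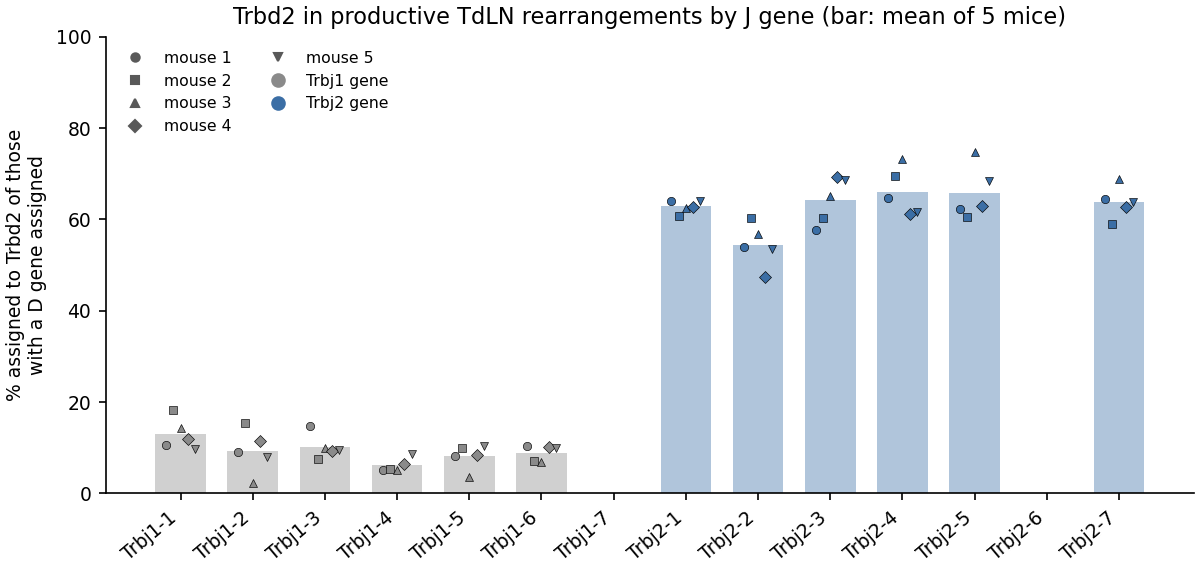
Percentage of productive TdLN rearrangements assigned to Trbd2, of those with a D gene assigned, per J gene. Bars start at 0 and give the mean of 5 mice, points are mice. Trbj2 genes stand between 54.4% and 66.1% on average, and the Trbj1 genes together at 9.80%. Trbj1-7 and Trbj2-6 have too few rearrangements to show.

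Trbj2 use varied modestly with the V gene. Over the 20 V genes with enough productive TdLN rearrangements, the Trbj2 share was highest with Trbv14 (75.7% ± 9.44, SD, n = 5), Trbv15 (75.3% ± 3.32) and Trbv17 (75.0% ± 5.08). It was lowest with Trbv20 (59.3% ± 5.29), Trbv31 (59.9% ± 6.52) and Trbv19 (60.7% ± 6.66). These are means over mice. With rearrangements pooled over mice Trbv4 was highest, at 74.4%, Trbv14 stood at 71.6%, and Trbv20 stayed lowest, at 57.0%. Trbv31 lies downstream of both J clusters in inverted orientation, unlike the other V genes. V genes at both ends of this order overlapped with their neighbours, and no test was made of it.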

How the data were processed

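CD8+ PD-1+ CD44+ T cells were sorted, and genomic DNA was sequenced by immunoSEQ (Adaptive Biotechnologies). Read processing was done by the provider. The submitters' processing notes name the build mm10, and the software is not given in the sources used here. The deposited count of each distinct 87-base rearrangement is a whole number of templates, equal to the estimated number of genomes, and was used as it stands. The deposited fraction of each rearrangement was not used, and shares were computed from the counts. V, D and J assignments, trimming, N insertions, CDR3 length and reading frame are those of the authors' files.

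The members and lists were chosen with earlier results of these data known. Each sample gave 1 value per J gene. Means over mice were compared by two-sided exact permutation tests (5 against 5), with Benjamini-Hochberg adjustment over the J genes of both clusters with a mean share of at least 1%. Genes were named where they are members, and Trbj1 genes where an adjusted p was under 0.05. Alternatives were limma 3.58.1 on log2(share + 0.5), edgeR 4.0.16, blocks for the mouse, left-out mice, at least 2 templates, no rearrangements shared between mice, and removal of near-copies, the last added after the data were seen. Scripts were tested on simulated data. Same-numbered samples come from 1 mouse per the study. The deviations of J gene shares from the group means correlated in same-numbered pairs at −0.108 to 0.275 for tumor 1 and TdLN. Counting error limits the shares of shallow samples, and intervals are 95% Wilson intervals. Gene positions are from GENCODE on GRCm38.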

Additional observations from a re-analysis of the deposited data

Results flagged for a closer look

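Among the 42 sets of 5 samples examined, 5 held a value far from the other 4 mice. The rule flags about 1 in 20 by chance where values are normally distributed, which template shares with large clones need not be. All 5 are shares of productive templates. Trbj2-1 held 17.3% in the TdLN of mouse 3, against 11.2% to 12.7% in the other mice. Trbj2-2 held 2.72% in tumor 1 of mouse 5, against 0.554% to 1.13%. Trbj2-3 held 8.81% in tumor 1 of mouse 2, against 1.39% to 2.11%. Trbj2-4 held 26.1% in tumor 1 of mouse 4, against 0.815% to 4.05%, and 39.9% in tumor 2 of the same mouse, against 2.18% to 9.44%.

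Data outside the comparisons also held Trbj2 rearrangements. Of 363 rearrangements with a stop codon, 240 (66.1%) used a Trbj2 gene. There were 37 rearrangements with no single J gene assigned, 21 of them productive and 16 out of frame. Trbj2-6 had 14 rearrangements in any reading frame.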

How the results depend on the processing

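The 2 template calls of tumor 2 against the TdLN became 1 with limma, and 0 with all 14 J genes, with at least 2 templates or without rearrangements found in another mouse, where Trbj2-2 reached 1.17. Tumor 1 against the TdLN gave 2 template calls with limma and, by unique rearrangements, 2 with at least 2 templates, neither a Trbj2 gene. The 2 reading-frame calls became 0 with all 14 genes or at least 2 templates. They were 6 when near-copies and non-productive rearrangements 1 base from a productive one with as many templates were left out, 2 of them Trbj2 genes (Trbj2-7 4.57 and Trbj2-1 2.81 points higher among productive ones). Trbj2-7 turned from −6.38 to 7.37 with at least 2 templates and to 5.38 without near-copies, and the cluster from −2.81 to 7.51 with at least 2 templates, 3.45 without near-copies and 6.77 without the wider set. J trimming of tumor 1 against the TdLN gave 2 calls, and N insertions between reading frames 4, when weighted by templates. N insertions between reading frames gave 7 calls by limma. The cause was not tested.

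Leaving out each mouse gave 0 to 0 calls for the reading frames and for tumor 2 templates. With 4 against 4 mice the smallest p is 0.0286, a size at which these tests say nothing about stability. With the mouse as a replicate block, an exact sign-flip test cannot go below 0.0625 and gave 0 calls in both. With the same block limma gave 1 call for tumor 2 templates, 4 for the reading frames, 1 for J trimming and 10 for N insertions between reading frames. In same-numbered pairs of tumor 2 and TdLN the deviations correlated at −0.002 to 0.543.

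Most other counts of called genes were 0 under an alternative as in the comparison itself, and a count carries no direction. With the mouse as a replicate block limma gave 0 calls for tumor 1 templates. Tumor 2 of mouse 4, with 50 productive rearrangements, limits every tumor 2 share.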
